A study of Mus musculus with 15 samples.

Results

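The genes that copy DNA and the genes that divide the cell were compared in bulk RNA sequencing of mouse bone marrow. A list of 49 named genes was taken, of 38315 genes in the deposited table, and all 49 were found by gene symbol. Of these, 27 act at the G1/S boundary or in S phase and are called S phase genes here, and 22 act in G2 and mitosis and are called mitotic genes. All 49 passed the filter on low values described with the data processing.

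The 15 samples formed 3 groups. The first held 7 marrows with acute myeloid leukaemia (AML) from mice transgenic for both NUP98-NSD1, a fusion oncoprotein, and FLT3-ITD, an internal tandem duplication that activates the receptor tyrosine kinase Flt3. The second held 4 wild-type whole bone marrows. The third held 4 wild-type marrows depleted of lineage-positive cells, called lineage-negative marrow, a fraction enriched for stem and progenitor cells. Ages, the promoters that drive the transgenes, the antibodies of the depletion and treatments were not given in the sources used here. The design text counts the samples as mice, and the titles number them. Nothing states that the AML samples were purified for leukaemic cells.

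A dividing cell first licenses its replication origins by loading the MCM helicase, with the help of Cdc6 and Cdt1. In S phase, Cdc45 and the GINS complex activate the helicase, the polymerases and the Pcna clamp copy the DNA, and ribonucleotide reductase and thymidylate synthase supply nucleotides. E2F factors drive many of these genes at the G1/S boundary. Cyclin A and cyclin B with Cdk1 then take the cell into mitosis, where Aurora and Polo-like kinases, spindle motors and kinetochore proteins separate the chromosomes, and the anaphase-promoting complex ends it. Transcription of many mitotic genes rises later in the cycle, through promoter elements called CHR, often accompanied by CCAAT boxes. In marrow, rapid division is typical of progenitors and of early erythroid and granulocytic precursors.

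Promoter sequences are shown first, so that they can be set beside the levels of the 2 gene sets. RefSeq promoter windows on GRCm38.p6, which run from 250 bases before to 50 bases after a transcription start, were matched for 40 of the 49 genes, 21 S phase and 19 mitotic, with 42 windows in all. The windows were searched on both strands for 3 motifs. The E2F motif was any of TTTCCCGC, TTTGGCGC, TTTCGCGC or TTTGCCGC, the CHR motif was TTTGAA or TTCGAA, and the last was CCAAT. The E2F motif was present in 10 of 23 S phase windows (43.5%) and in 1 of 19 mitotic windows (5.26%), against 2.26% of all 32851 windows of the same length. The CHR motif was present in 15 mitotic windows (78.9%) and 4 S phase windows (17.4%), against 19.2% of all windows. CCAAT was present in 69.6% of S phase windows and 84.2% of mitotic windows, against 37.4% of all. CCAAT and CHR together were found in 73.7% of mitotic windows, 17.4% of S phase windows and 7.52% of all. The median GC content was 60.0% in S phase windows, 58.7% in mitotic windows and 52.7% in all windows, and short matches depend on base composition. A match describes the letters and does not show that a factor binds there.

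The 250 bases before the start are printed 5′ to 3′ on the strand of the gene for 3 S phase genes with E2F matches and for 3 mitotic genes with CHR and CCAAT matches. They are shown as examples of both kinds of promoter. Capitals mark the matches and run together where matches touch or overlap. Cdc6 lies at chr11:98907901-98908150 on the plus strand, Mcm5 at chr8:75109259-75109508 on the plus strand and Mcm6 at chr1:128359706-128359955 on the minus strand. Cdk1 lies at chr10:69352913-69353162 on the minus strand, Cdc20 at chr4:118437344-118437593 on the minus strand and Ube2c at chr2:164769679-164769928 on the plus strand.
Cdc6: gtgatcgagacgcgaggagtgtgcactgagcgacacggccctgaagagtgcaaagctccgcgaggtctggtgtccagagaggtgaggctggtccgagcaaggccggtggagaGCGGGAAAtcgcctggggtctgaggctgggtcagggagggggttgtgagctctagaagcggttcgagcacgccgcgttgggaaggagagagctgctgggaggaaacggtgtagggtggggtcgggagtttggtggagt
Mcm5: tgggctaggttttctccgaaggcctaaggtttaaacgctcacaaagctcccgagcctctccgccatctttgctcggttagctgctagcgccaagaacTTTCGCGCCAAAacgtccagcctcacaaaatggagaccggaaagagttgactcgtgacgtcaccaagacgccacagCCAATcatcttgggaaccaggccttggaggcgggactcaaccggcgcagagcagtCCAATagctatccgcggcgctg
Mcm6: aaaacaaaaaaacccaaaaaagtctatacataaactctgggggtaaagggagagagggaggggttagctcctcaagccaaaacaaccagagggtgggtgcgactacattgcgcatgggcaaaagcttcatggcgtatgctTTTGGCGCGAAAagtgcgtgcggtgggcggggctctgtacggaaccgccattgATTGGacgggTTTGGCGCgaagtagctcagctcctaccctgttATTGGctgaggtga
Cdk1: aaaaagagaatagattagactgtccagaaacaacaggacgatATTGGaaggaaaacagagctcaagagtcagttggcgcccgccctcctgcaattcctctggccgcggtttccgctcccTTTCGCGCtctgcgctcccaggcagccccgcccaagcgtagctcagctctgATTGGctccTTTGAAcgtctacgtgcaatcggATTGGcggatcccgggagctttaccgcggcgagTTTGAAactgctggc
Cdc20: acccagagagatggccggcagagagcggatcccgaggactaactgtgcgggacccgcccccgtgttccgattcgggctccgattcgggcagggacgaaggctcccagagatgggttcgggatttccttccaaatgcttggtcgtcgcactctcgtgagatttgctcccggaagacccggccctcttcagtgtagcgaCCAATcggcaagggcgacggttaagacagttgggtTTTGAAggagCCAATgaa
Ube2c: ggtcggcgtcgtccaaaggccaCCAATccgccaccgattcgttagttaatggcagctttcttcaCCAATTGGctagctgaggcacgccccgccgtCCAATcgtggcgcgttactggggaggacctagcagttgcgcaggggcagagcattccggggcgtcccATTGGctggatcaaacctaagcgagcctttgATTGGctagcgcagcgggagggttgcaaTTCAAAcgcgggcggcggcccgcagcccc

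Distances are counted in bases before the start to the first base of the match. The E2F match of Cdc6 began at 138. Mcm5 had E2F matches at 149 and 153, which overlap, and CCAAT at 77 and 22. Mcm6 had E2F matches at 110, 106 and 47, of which the first 2 overlap. The CHR matches of the mitotic genes began at 71 and 15 for Cdk1, at 18 for Cdc20 and at 29 for Ube2c. Each of them had a CCAAT match further from the start than its CHR match. Cdk1 was the only mitotic gene of the 19 matched with an E2F match, at 131.

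The values are normalized counts, that is, estimated reads per gene divided by a size factor of the library, as deposited, and were rescaled here with TMM factors which assume that most genes do not differ between libraries. The estimated depth was 20200000 to 35000000 reads for the AML libraries, 11400000 to 17200000 for the whole marrows and 20200000 to 28100000 for the lineage-negative marrows. Rescaling mattered because the deposited scaling put the median gene 0.67 higher (log2) in AML than in whole marrow and 0.59 higher in lineage-negative than in whole marrow. After rescaling these medians were -0.01 and -0.09, and that of AML against lineage-negative marrow was 0.03. A gene is said to have been called when the limma adjusted p was below 0.05 over 18941 genes and the log2 difference was at least 1 in size, and to have passed the test when the adjusted p alone was below 0.05. The values given are levels in rescaled normalized counts and differences between group means on the log2(value + 1) scale.

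Summed levels of cell type markers also differed between the libraries. Erythroid markers summed to 1753560 to 2538580 over the whole marrows, 37492 to 69823 over the lineage-negative libraries and 2756 to 31481 over the AML libraries. The sum does not describe each of its 14 genes. With whole marrow as the reference, all 14 met the call for a decrease in AML, but only 9 did in lineage-negative marrow. The other 5, Car1, Klf1, Epor, Gata1 and Ermap, were not called there. Differences were above 0 for 2 of the 14 and below 0 for 12, with Car1 the highest at 1.73. Late neutrophil markers summed to 837 to 15343 over the lineage-negative libraries, 362969 to 1166590 over the AML libraries and 863226 to 1408080 over the whole marrows, and stem and progenitor markers to 13430 to 17211 in lineage-negative marrow, 2686 to 2801 in whole marrow and 1800 to 4726 in AML. Granulocyte-monocyte progenitor markers summed to 96478 to 159447 in lineage-negative marrow, 39854 to 54172 in whole marrow and 13629 to 72578 in AML. No gene of these lists, nor of the precursor B or T cell lists, was at 0 in every library of a group. The summed levels of the wild-type groups follow their labels. Between AML and whole marrow the erythroid and precursor B sums did not overlap, whereas the late neutrophil, stem and progenitor and granulocyte-monocyte progenitor sums overlapped. Precursor B markers summed to 454 to 4608 in AML, 8820 to 13380.5 in whole marrow and 1067 to 1482 in lineage-negative marrow. T cell markers summed to 460 to 2353 in AML, 600 to 713 in whole marrow and 110 to 193 in lineage-negative marrow. Lineage-negative marrow overlapped with neither other group in the erythroid, late neutrophil, stem and progenitor and granulocyte-monocyte progenitor sums. Its precursor B sums overlapped with those of AML. The part of these sums in the differences of the replication and mitosis genes was not tested. In bulk RNA, fewer cells of a type and less RNA per cell cannot be told apart.

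One library stood apart. AML replicate 3 was the lowest AML library for 48 of the 49 genes, and for those 48 it was below all 14 other libraries. The exception was Gins4. The median deviation of AML replicate 3 from the other AML libraries was -0.80 (log2) over the S phase genes and -1.03 over the mitotic genes. Among the AML libraries replicate 3 had the highest summed erythroid and precursor B markers, at 31481 and 4608. Its T cell sum was also the highest, at 2353, with AML replicate 6 close to it at 2351. The next erythroid sum was 18889, in AML replicate 4, which was the highest AML library for 7 of the 49 genes. A link between these sums and the low levels was not tested. The counts of genes called, and the genes whose call it decides, are given with and without it. Lineage-negative replicate 1 was the highest library of its group for 25 genes and the lowest for 11, and was also left out in turn.

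**Figure D1:**
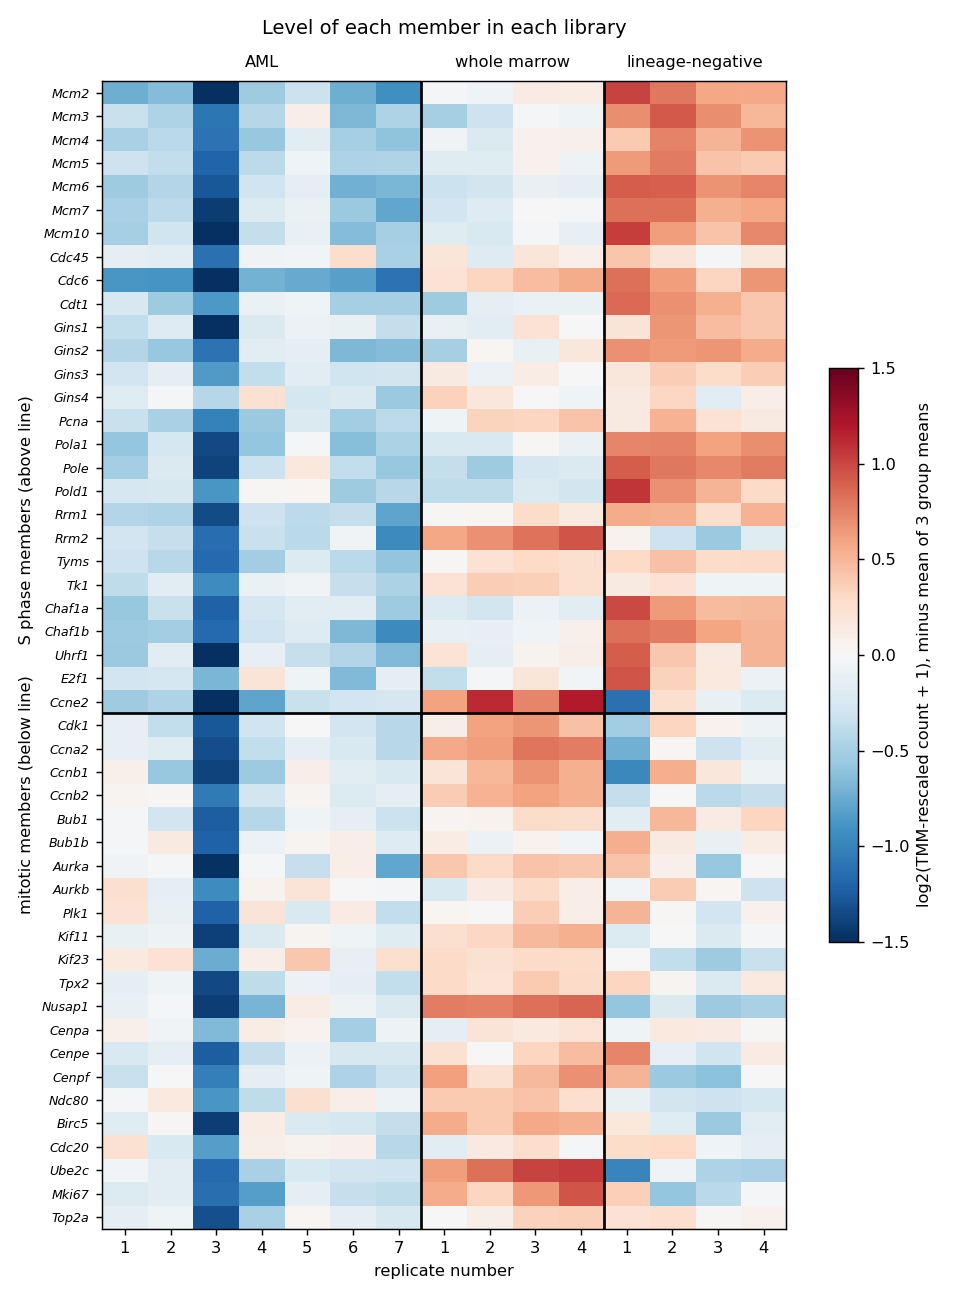
Level of each of the 49 genes in each of the 15 libraries (columns, by group and replicate number), as the log2 rescaled count minus the mean of the group means of the gene. S phase genes are above the line and mitotic genes below it; AML replicate 3 is the low column, below the 14 other libraries for 48 of the 49 genes.

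Against lineage-negative marrow, AML had lower levels of the replication genes but not, to a detectable degree, of most mitotic genes. Of 27 S phase genes, 16 were called lower (59.3%) and none higher, against 12.4% of all genes called lower and 17.6% called higher. They were Mcm2 to Mcm7, Mcm10, Cdc6, Cdt1, Gins2, Pola1, Pole, Rrm1, Chaf1a, Chaf1b and Uhrf1. On the adjusted p alone, 23 passed as lower, against 25.5% of all genes lower and 26.1% higher. Of 22 mitotic genes, none was called by limma, and on the adjusted p alone Bub1 passed as lower. Their differences were below 0 for 17 and above 0 for 5. At an unadjusted p under 0.05, 4 mitotic genes were lower and none higher, and limma-voom on the estimated reads also called 0. The median difference was -1.04 over the S phase genes, with a range from -1.61 for Cdc6 to -0.25 for Rrm2, and -0.22 over the mitotic genes, with a range from -0.56 for Bub1 to 0.34 for Kif23. The groups did not overlap for 21 S phase genes, all lower in AML, and for none of the mitotic genes, against 17.8% of all genes lower without overlap. Of the 27 S phase genes, 22 had a difference below that of every mitotic gene. With quantile scaling 7 mitotic genes passed on the adjusted p as lower, at a median of -0.36, and with the deposited scaling none passed.

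Against whole marrow, AML levels of both gene sets were lower after rescaling, with medians of -0.42 over the S phase genes and -0.67 over the mitotic genes, but were 0.27 and 0.03 with the scaling of the deposited table. Of the S phase genes 3 were called lower, Cdc6, Rrm2 and Ccne2, which is 11.1%. Of the mitotic genes 4 were called lower, Ccna2, Nusap1, Ube2c and Mki67, which is 18.2%. Over all genes 16% were called lower and 4.73% higher, so these counts were near the background. On the adjusted p alone, 13 S phase genes (48.1%) and 16 mitotic genes (72.7%) passed as lower and none as higher, against 20.9% of all genes lower and 16.9% higher. All 49 differences were below 0. The groups did not overlap for 10 S phase and 15 mitotic genes, all lower in AML, against 15.1% of all genes. With the deposited scaling the median over all genes was 0.67, and limma called none of the 49 genes, while 27.3% of all genes were called higher and 11.3% lower. At an unadjusted p under 0.05, 4 S phase genes were then higher and 3 lower, and 4 mitotic genes higher and 1 lower. Relative to the median of the genes kept, the deposited scaling gave -0.40 and -0.64. Relative to the median over every gene above 0 in any library, -0.63 after rescaling, the medians of the 2 sets were 0.21 and -0.04, so the relative position depends on the filter on low values. All levels and differences below are those after rescaling.

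Between the wild-type groups, the gene sets moved apart. In lineage-negative against whole marrow, 14 of 27 S phase genes passed the test as higher, against 24.9% of all genes, and 2 as lower. Of the mitotic genes none passed as higher and 9 as lower (40.9%), against 31.5% of all genes. With the additional minimum of 1 in the difference, 2 S phase genes were called higher, Mcm6 and Pole, and 2 lower, Rrm2 and Ccne2, while 2 mitotic genes, Nusap1 and Ube2c, were called lower. These counts lie below the 11% and 24.8% of all genes called higher and lower. The spread was estimated over all 3 groups together, so AML replicate 3 also enters the tests of this comparison. Without it, Gins1, Rrm1 and Uhrf1 also passed as higher (adjusted p = 0.0107, 0.0265 and 0.0292). Cdk1 and Kif11 then also passed as lower (adjusted p = 0.0178 and 0.00113). The median difference was 0.61 over the S phase genes and -0.50 over the mitotic genes, and 20 of 27 S phase genes had a difference above that of every mitotic gene. The wild-type groups did not overlap for 15 S phase genes that were higher and 2 that were lower in lineage-negative marrow, and for 8 mitotic genes that were lower, against 23.6% of all genes higher and 30.3% lower without overlap. With the deposited scaling 18 S phase genes were called higher, against 33.1% of all genes, no mitotic gene was called lower, and the medians were 1.31 and 0.20. The gap between the medians was 1.12 in both scalings. The 3 comparisons share their samples pairwise, so they are not independent of each other.

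**Figure D2:**
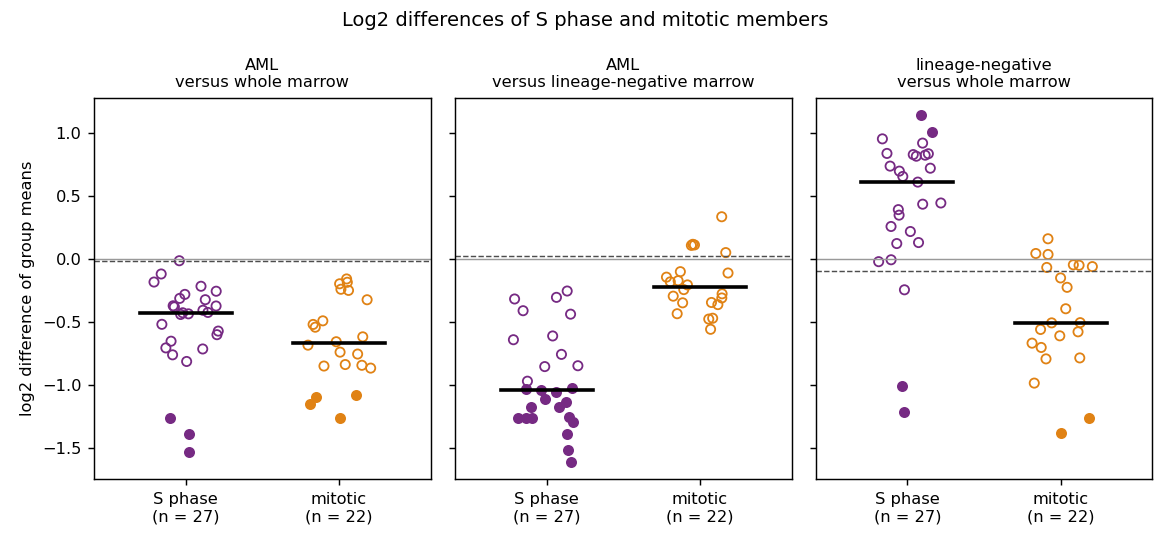
Log2 difference of group means for each of the 27 S phase and 22 mitotic genes (points) in the 3 comparisons; the dashed line is the median over all 18941 genes tested. S phase genes lie lowest in AML against lineage-negative marrow (median -1.04) and mitotic genes lowest in AML against whole marrow (median -0.67, and 0.03 with the deposited scaling).

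The same contrast was seen library by library. The level of each gene set in a library was taken as the mean, over its genes, of the centred log2 value. Each gene was centred on the mean of its 3 group means. The S phase level minus the mitotic level was between -0.39 and -0.03 in the 7 AML libraries, at -0.33, -0.32, -0.35 and -0.32 in the 4 whole marrows, and at 0.59, 0.54, 0.58 and 0.48 in the 4 lineage-negative marrows. The lineage-negative libraries were all above the 11 others, whereas AML and whole marrow overlapped. The S phase level itself was -0.50 ± 0.33 (SD, n = 7) over AML, 0.036 ± 0.094 (SD, n = 4) over whole marrow and 0.46 ± 0.12 (SD, n = 4) over lineage-negative marrow. The mitotic level was -0.28 ± 0.40 (SD, n = 7) over AML, 0.37 ± 0.0995 (SD, n = 4) over whole marrow and -0.088 ± 0.11 (SD, n = 4) over lineage-negative marrow. AML replicate 3 had an S phase level of -1.20 and a mitotic level of -1.17, a gap of -0.03, which was the highest of the AML libraries.

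**Figure D3:**
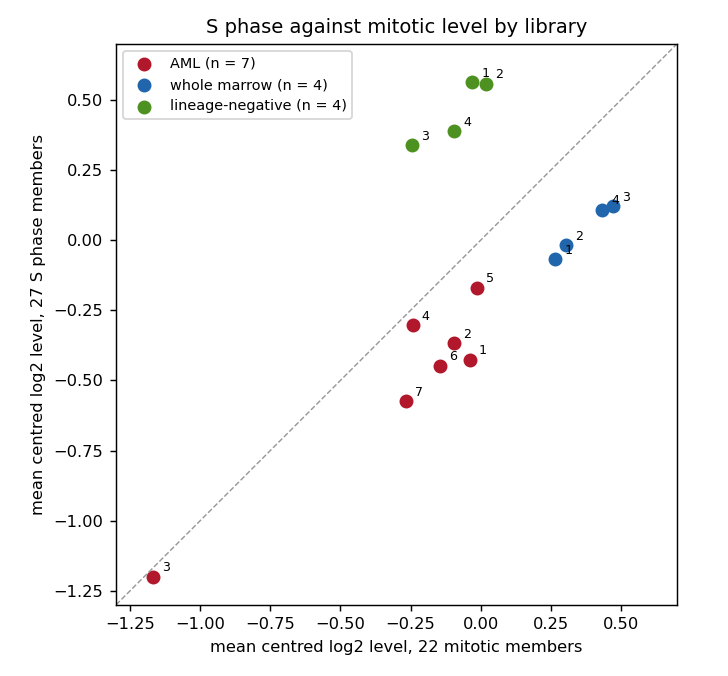
Mean centred log2 level of the 27 S phase genes (vertical) against that of the 22 mitotic genes (horizontal), 1 point per library. Lineage-negative libraries lie above the others at a given mitotic level, with gaps between the levels of 0.48 to 0.59, and AML replicate 3 lies far down on both axes.

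Fewer genes were called without AML replicate 3. Without it 11 S phase genes and no mitotic gene were called lower in AML against lineage-negative marrow, with medians of -0.93 and -0.11, and 23 S phase genes passed on the adjusted p alone. The 5 genes that lost their call had differences of -0.91 for Mcm5, -0.94 for Cdt1, -0.93 for Rrm1, -0.98 for Chaf1a and -0.87 for Uhrf1, and all 5 passed on the adjusted p. Without lineage-negative replicate 1, 13 were called, and without both libraries 10 were called, with a median of -0.87. Against whole marrow 3 S phase genes and 1 mitotic gene were called lower without AML replicate 3, with medians of -0.29 and -0.49, and 16 mitotic genes passed on the adjusted p alone. The mitotic gene still called was Ube2c, at -1.13, whereas Nusap1 at -0.97, Mki67 at -0.96 and Ccna2 at -0.94 were no longer below -1. With all libraries, 12.4% of all genes were called lower in AML against lineage-negative marrow and 16% against whole marrow. On the adjusted p alone these shares were 25.5% and 20.9%. Shares of all genes in the fits without these libraries are not given here.

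The MCM helicase, the ring that unwinds DNA ahead of the fork, was lower in AML than in lineage-negative marrow in all 6 subunits. All 6 were called, against 12.4% of all genes called lower, with a median difference of -1.22. Without AML replicate 3, 5 were called, and Mcm5 was at -0.91. All 6 passed the test as higher in lineage-negative than in whole marrow, against 24.9% of all genes. Their median there was 0.76, and Mcm6 among them was called. Mcm6 lost this call, at 0.98 to 0.99, without lineage-negative replicate 1 or 2 or whole marrow replicate 1 or 2. Against whole marrow 2 of 6 passed as lower in AML, against 20.9% of all genes, with a median of -0.40.

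Mcm2 (ENSMUSG00000002870), a subunit of this ring, had rescaled normalized counts of 1398 at the lowest, 2452 at the median and 3247 at the highest in AML. The whole marrows had 4002, 3883, 4404 and 4388, and the lineage-negative marrows 8167, 7042, 6045 and 6019. No groups overlapped, with AML lowest and lineage-negative marrow highest. AML averaged 2439 ± 574 (SD, n = 7), whole marrow 4169 ± 267 (SD, n = 4) and lineage-negative marrow 6818 ± 1017 (SD, n = 4). AML differed by -1.51 (SE 0.173, adjusted p = 1.29e-06) against lineage-negative marrow, a level 2.85-fold lower, and -0.81 (SE 0.173, adjusted p = 0.00135) against whole marrow. Lineage-negative exceeded whole marrow by 0.70 (SE 0.195, adjusted p = 0.00552).

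Mcm5, the subunit whose promoter is shown above with overlapping E2F matches, had counts of 2180.3 at the lowest, 3793 at the median and 4766 at the highest in AML. It had 4421, 4398, 5213 and 4725 in the whole marrows and 7796, 8611, 6745 and 6556 in the lineage-negative marrows. Lineage-negative marrow was above the other groups without overlap, and AML and whole marrow overlapped. For AML the difference was -1.03 (SE 0.162, adjusted p = 4.22e-05) against lineage-negative marrow and -0.37 (SE 0.162, adjusted p = 0.0823) against whole marrow. Mcm6 had 2515 at the lowest, 4197 at the median and 5453 at the highest in AML. Its counts were 4839, 4981, 5614 and 5465 in whole marrow and 11323, 11224, 9630.3 and 10054 in lineage-negative marrow. Lineage-negative marrow was again highest without overlap. The differences of Mcm6 were -1.38 (SE 0.162, adjusted p = 1.71e-06) for AML against lineage-negative marrow and 1.01 (SE 0.183, adjusted p = 0.000159) for lineage-negative against whole marrow, and AML against whole marrow gave -0.37 (adjusted p = 0.0838). For Mcm3, Mcm4 and Mcm7 the differences of AML against lineage-negative marrow were -1.18, -1.13 and -1.26.

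Of the 8 genes that load or activate the helicase, 4 were called lower in AML than in lineage-negative marrow, with a median of -0.94 over the 8, against 12.4% of all genes called lower. Without AML replicate 3, Cdt1 was no longer among the 4, at -0.94. Cdc6 (ENSMUSG00000017499), the ATPase that loads the MCM ring at origins, was the S phase gene with the most negative difference against lineage-negative marrow and the second against whole marrow. Its counts were 365 at the lowest, 720.4 at the median and 813 at the highest in AML. Whole marrow had 1541, 1663, 1827 and 1944, and lineage-negative marrow 2352, 2049, 1661 and 2095. Every AML library was below every wild-type library, whereas the wild-type groups overlapped. AML averaged 681.7 ± 153 (SD, n = 7), whole marrow 1744 ± 178 (SD, n = 4) and lineage-negative marrow 2039 ± 285 (SD, n = 4). The difference was -1.39 (SE 0.179, adjusted p = 1.23e-05) against whole marrow and -1.61 (SE 0.179, adjusted p = 9.51e-07) against lineage-negative marrow, 2.62-fold and 3.05-fold lower. Between the wild-type groups it was 0.22 (SE 0.202, adjusted p = 0.37).

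Cdt1, the partner of Cdc6 in loading, had a difference of -1.02 (adjusted p = 1.82e-05) against lineage-negative marrow and -0.18 (adjusted p = 0.361) against whole marrow. Mcm10, which helps to start the loaded helicase, had -1.26 (adjusted p = 3.98e-05) and -0.42 (adjusted p = 0.104) in the same order, and Cdc45, a part of the active helicase, had -0.44 (adjusted p = 0.0703) and -0.31 (adjusted p = 0.224). The Cdc45 difference against lineage-negative marrow passed without AML replicate 6, at -0.52 (adjusted p = 0.0255). The GINS subunits were not uniform. Against lineage-negative marrow Gins1 differed by -0.85 (adjusted p = 0.00441), Gins2 by -1.17 (adjusted p = 1.3e-05) and Gins3 by -0.64 (adjusted p = 0.000724). Against whole marrow Gins2 differed by -0.43 (adjusted p = 0.0479) and Gins3 by -0.38 (adjusted p = 0.0362). Gins2 did not pass there without any 1 lineage-negative library (adjusted p = 0.0506 to 0.0589). Nor did it without AML replicate 1, 2, 3, 6 or 7, or whole marrow replicate 2, 3 or 4 (adjusted p = 0.0544 to 0.162). Gins3 did not pass there without AML replicate 4 or whole marrow replicate 1, 3 or 4 (adjusted p = 0.0515 to 0.096). Gins4 had counts of 434 at the lowest, 549.7 at the median and 752 at the highest in AML, 814, 724, 639 and 615 in whole marrow and 703, 793, 575 and 687 in lineage-negative marrow. Its groups overlapped, and its difference of -0.30 (SE 0.143, adjusted p = 0.0896) against lineage-negative marrow did not pass the test. Against whole marrow it was -0.32 (adjusted p = 0.0894), and between the wild-type groups -0.02 (adjusted p = 0.931). Without AML replicate 4, Gins4 passed as lower in AML, at -0.37 against lineage-negative marrow (adjusted p = 0.0249) and -0.39 against whole marrow (adjusted p = 0.028).

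Among the polymerases and their clamp, Pole and Pold1, the catalytic subunits of the leading-strand and the lagging-strand polymerase, were high in lineage-negative marrow alone. Pole had counts of 695 at the lowest, 1406 at the median and 2029 at the highest in AML. It had 1418, 1256, 1524 and 1562 in whole marrow and 3421, 3154, 2994 and 3132 in lineage-negative marrow. AML and whole marrow overlapped and lineage-negative marrow was above both. AML averaged 1380.4 ± 401 (SD, n = 7), whole marrow 1440.2 ± 137 (SD, n = 4) and lineage-negative marrow 3175 ± 179 (SD, n = 4). In AML the gene differed by -1.26 (SE 0.195, adjusted p = 3.55e-05) against lineage-negative marrow and -0.12 (SE 0.195, adjusted p = 0.672) against whole marrow, and lineage-negative exceeded whole marrow by 1.14 (SE 0.22, adjusted p = 0.00029), 2.21-fold. Pold1 had 1071 at the lowest, 1648 at the median and 2014 at the highest in AML. Its counts were 1516, 1514, 1690.3 and 1622 in whole marrow and 4146, 3178, 2807 and 2414 in lineage-negative marrow. As for Pole, lineage-negative marrow alone stood above the rest. The differences of Pold1 were -0.97 (SE 0.166, adjusted p = 9.95e-05), -0.01 (SE 0.166, adjusted p = 0.965) and 0.96 (SE 0.187, adjusted p = 0.000333) in the same order.

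Pcna, the sliding clamp that holds polymerases on DNA, followed another pattern. Its counts were 1972 at the lowest, 2840.1 at the median and 3429 at the highest in AML. They were 3830.0, 5022, 4991 and 5359 in whole marrow and 4396, 5738, 4623 and 4369 in lineage-negative marrow. Every AML library was below every wild-type library. The differences were -0.76 (SE 0.143, adjusted p = 0.000464) against whole and -0.75 (SE 0.143, adjusted p = 0.000252) against lineage-negative marrow, and the wild-type groups, which overlapped, differed by -0.00 (SE 0.161, adjusted p = 0.988). Pola1, the catalytic subunit of the polymerase that makes primers, differed by -1.25 (adjusted p = 1.03e-05) against lineage-negative and -0.42 (adjusted p = 0.0624) against whole marrow.

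Rrm2, the cell cycle-regulated subunit of ribonucleotide reductase, and Ccne2, a cyclin E that activates Cdk2 at the G1/S boundary, were the 2 S phase genes that were lower in lineage-negative than in whole marrow by the test. Rrm2 had counts of 1492 at the lowest, 2587 at the median and 3185 at the highest in AML. The whole marrows had 4948, 5306, 5807 and 6330.2, and the lineage-negative marrows 3412, 2654, 2247 and 2904. Whole marrow was above both other groups without overlap. AML averaged 2399 ± 593 (SD, n = 7), whole marrow 5598 ± 602 (SD, n = 4) and lineage-negative marrow 2804 ± 487 (SD, n = 4). The difference of AML was -1.26 (SE 0.182, adjusted p = 3.8e-05) against whole and -0.25 (SE 0.182, adjusted p = 0.265) against lineage-negative marrow, and lineage-negative against whole marrow gave -1.01 (SE 0.205, adjusted p = 0.000477). The last lost its call, at -0.99 to -0.91, without lineage-negative replicate 2 or 3 or whole marrow replicate 3 or 4. Ccne2 had 280.1 at the lowest, 633 at the median and 732 at the highest in AML. It had 1334, 1898, 1457 and 1991 in whole marrow and 402, 1032, 809.6 and 757 in lineage-negative marrow. Whole marrow was highest, again without overlap. AML differed by -1.53 (SE 0.26, adjusted p = 0.00019) against whole marrow, 2.88-fold lower, and -0.31 (SE 0.26, adjusted p = 0.331) against lineage-negative marrow. Lineage-negative against whole marrow gave -1.21 (SE 0.293, adjusted p = 0.002), and without lineage-negative replicate 1 -0.94 (adjusted p = 0.00771), which was not called. Mcm2 to Mcm7 went the other way between the wild-type groups, as given above.

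The other nucleotide genes were Rrm1, the large reductase subunit, Tyms, which makes thymidylate, and Tk1, which salvages thymidine. Against lineage-negative marrow Rrm1 differed by -1.05 (adjusted p = 4.33e-05), Tyms by -0.84 (adjusted p = 9.2e-05) and Tk1 by -0.41 (adjusted p = 0.0221). Without AML replicate 3 Rrm1 was at -0.93 and lost its call. Tk1 did not pass without lineage-negative replicate 1 or 2 (adjusted p = 0.0514 and 0.0749). Against whole marrow Rrm1, Tyms and Tk1 differed by -0.70 (adjusted p = 0.00308), -0.71 (adjusted p = 0.000864) and -0.65 (adjusted p = 0.00154). All 4 nucleotide genes passed as lower in AML against whole marrow, against 20.9% of all genes. E2f1, a transcription activator of S phase genes, had 335 at the lowest, 449 at the median and 618 at the highest in AML, 419.7, 535, 615 and 525 in whole marrow and 1040.1, 686, 597 and 509 in lineage-negative marrow, with overlap between all groups. Its difference was -0.61 (SE 0.195, adjusted p = 0.0145) against lineage-negative marrow, which passed the test but not without lineage-negative replicate 1, at -0.41 (adjusted p = 0.0755). Against whole marrow it was -0.21 (SE 0.195, adjusted p = 0.413).

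The 3 genes that rebuild chromatin and its methylation behind the fork were all called lower in AML than in lineage-negative marrow, against 12.4% of all genes. Without AML replicate 3 Chaf1b alone was called, with Chaf1a at -0.98 and Uhrf1 at -0.87. Chaf1a and Chaf1b, subunits of the histone chaperone that loads histones on new DNA, differed by -1.11 (adjusted p = 2.94e-05) and -1.29 (adjusted p = 2.63e-06). Uhrf1, which brings the maintenance methyltransferase to new DNA, differed by -1.04 (adjusted p = 0.000527). Against whole marrow the differences were -0.28 (adjusted p = 0.211), -0.57 (adjusted p = 0.00886) and -0.60 (adjusted p = 0.0342). The last, for Uhrf1, did not pass without AML replicate 7 (adjusted p = 0.0546) or whole marrow replicate 1, 3 or 4 (adjusted p = 0.0948, 0.069 and 0.0769).

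**Figure D4:**
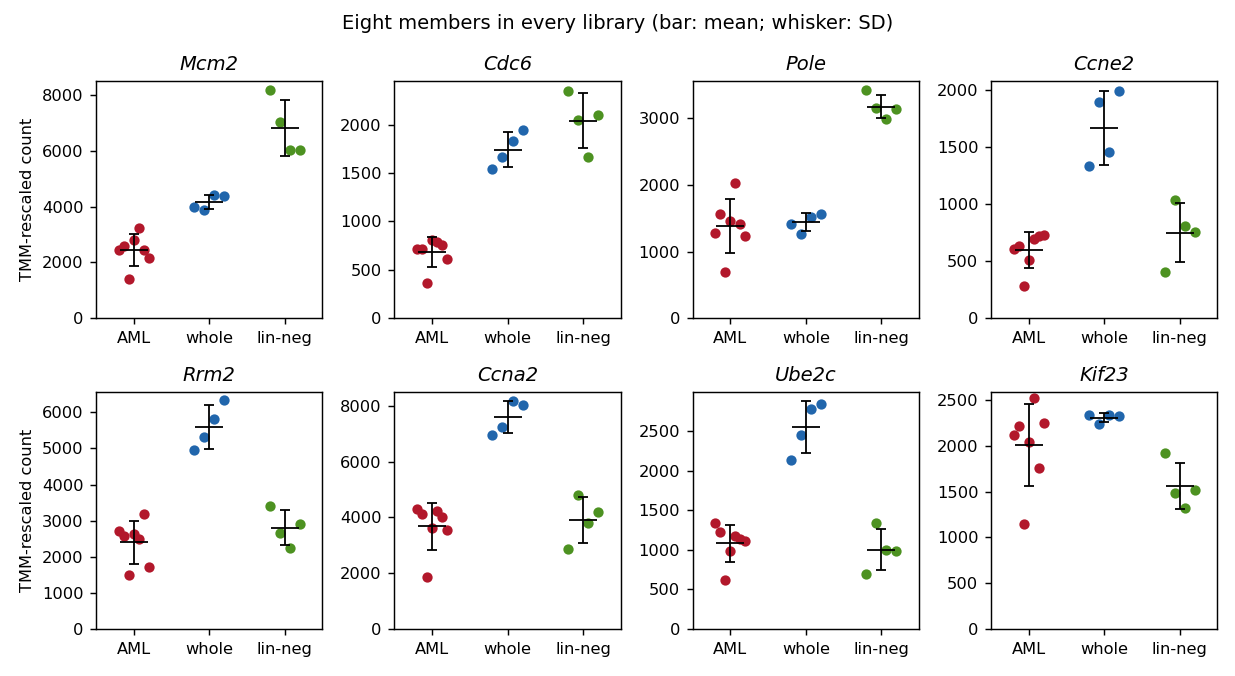
Rescaled normalized counts of 8 genes in every library (points), with the group mean (bar) and SD (whisker). Mcm2 and Pole are highest in lineage-negative marrow, whereas Rrm2, Ccne2, Ccna2 and Ube2c are highest in whole marrow, and Cdc6 is low in AML alone.

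On the mitotic side, Cdk1 and its cyclins had their highest group means in whole marrow. All 4 of these genes passed the test as lower in AML against whole marrow, against 20.9% of all genes, with a median of -0.86. None passed against lineage-negative marrow, where 25.5% of all genes passed as lower and the median was -0.21. Ccna2, the cyclin of S phase and entry into mitosis, had counts of 1860.3 at the lowest, 4017 at the median and 4316 at the highest in AML. It had 6957, 7249, 8174 and 8012 in whole marrow and 2854, 4795, 3787 and 4177 in lineage-negative marrow. Whole marrow stood above the others and AML overlapped with lineage-negative marrow. For AML the difference was -1.09 (SE 0.198, adjusted p = 0.000335) against whole and -0.11 (SE 0.198, adjusted p = 0.668) against lineage-negative marrow, and the wild-type groups differed by -0.98 (SE 0.223, adjusted p = 0.00121). Cdk1, the kinase that drives mitosis, had 749.5 at the lowest, 1478 at the median and 1814 at the highest in AML, 1936, 2768, 2877 and 2472 in whole marrow and 1261, 2282, 1891 and 1727 in lineage-negative marrow. Whole marrow was above AML without overlap, and the wild-type groups overlapped. Its difference of AML was -0.85 (SE 0.206, adjusted p = 0.00375) against whole and -0.34 (SE 0.206, adjusted p = 0.179) against lineage-negative marrow. Between the wild-type groups Cdk1 differed by -0.50 (SE 0.233, adjusted p = 0.0744), which did not pass. It passed as lower without AML replicate 3 (adjusted p = 0.0178), lineage-negative replicate 2 (adjusted p = 0.04) or whole marrow replicate 1 (adjusted p = 0.0441). Ccnb1, the mitotic cyclin B, had 574 at the lowest, 1279.7 at the median and 1618 at the highest in AML, 1718, 2131, 2396 and 2179 in whole marrow and 768, 2197, 1695 and 1426 in lineage-negative marrow. The lineage-negative libraries spread widely, with replicate 1 the lowest. In AML the gene differed by -0.86 (SE 0.272, adjusted p = 0.0187) against whole and -0.31 (SE 0.272, adjusted p = 0.365) against lineage-negative marrow. The first did not pass without whole marrow replicate 3 (adjusted p = 0.0574). Lineage-negative against whole marrow gave -0.56 (SE 0.306, adjusted p = 0.132) for Ccnb1, which did not pass. It passed without lineage-negative replicate 2, at -0.77 (adjusted p = 0.0493). For AML, Ccnb2 differed by -0.74 (adjusted p = 0.00263) against whole and 0.05 (adjusted p = 0.813) against lineage-negative marrow.

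None of the 5 mitotic and checkpoint kinases was called in any comparison, and their medians were -0.32 against whole and -0.35 against lineage-negative marrow. Over all genes, 16% were called lower and 4.73% higher in AML against whole marrow, and 12.4% and 17.6% against lineage-negative marrow. In lineage-negative against whole marrow these shares were 24.8% and 11%. Aurkb, the kinase of the chromosomal passenger complex, had counts of 889.6 at the lowest, 1705 at the median and 2022 at the highest in AML. It had 1453, 1858, 2089 and 1836 in whole marrow and 1655, 2227, 1743 and 1373 in lineage-negative marrow. All 3 groups overlapped. The difference of AML was -0.16 (SE 0.191, adjusted p = 0.551) against whole and -0.10 (SE 0.191, adjusted p = 0.69) against lineage-negative marrow, and -0.06 (SE 0.215, adjusted p = 0.836) between the wild-type groups. Bub1b, a spindle checkpoint kinase homologue, had 1268 at the lowest, 2913 at the median and 3250.2 at the highest in AML, 3183, 2773, 3059 and 2858 in whole marrow and 4308, 3232, 2739.6 and 3180.0 in lineage-negative marrow. These groups overlapped too, with differences of -0.18 (SE 0.206, adjusted p = 0.515) and -0.35 (SE 0.206, adjusted p = 0.175) for AML and 0.16 (SE 0.232, adjusted p = 0.572) between the wild-type groups. Bub1, a kinase of the same checkpoint, was the mitotic gene that passed the test against lineage-negative marrow. It had 467 at the lowest, 906 at the median and 1088 at the highest in AML, 1140.3, 1149, 1332 and 1325 in whole marrow and 986, 1564, 1207 and 1383 in lineage-negative marrow, so AML was lower in most libraries but overlapped with lineage-negative marrow. Its difference was -0.56 (SE 0.19, adjusted p = 0.0212) against lineage-negative and -0.52 (SE 0.19, adjusted p = 0.0409) against whole marrow. The first did not pass without lineage-negative replicate 2, at -0.45 (adjusted p = 0.0839), or replicate 4, at -0.51 (adjusted p = 0.061), and the second did not pass when any 1 whole marrow was left out. Nor did the second pass without AML replicate 2, 4 or 7 or lineage-negative replicate 3 (adjusted p = 0.053, 0.0622, 0.0544 and 0.0501). Aurka, the centrosomal Aurora kinase, differed by -0.75 (adjusted p = 0.0259) against whole and -0.36 (adjusted p = 0.249) against lineage-negative marrow, and Plk1, the Polo-like kinase, by -0.32 (adjusted p = 0.275) and -0.27 (adjusted p = 0.323). The Aurka difference against whole marrow did not pass without whole marrow replicate 1, 3 or 4 (adjusted p = 0.0593, 0.0598 and 0.0588).

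Among spindle motors and assembly factors, Nusap1, a microtubule-bundling protein, was called in both comparisons with whole marrow. Its counts were 903 at the lowest, 2218 at the median and 2597 at the highest in AML. They were 4084, 4055, 4282 and 4399.9 in whole marrow and 1607, 2065, 1648 and 1719 in lineage-negative marrow. Whole marrow was higher than all 11 other libraries. AML differed by -1.15 (SE 0.217, adjusted p = 0.000479) against whole and 0.11 (SE 0.217, adjusted p = 0.693) against lineage-negative marrow, and lineage-negative against whole marrow gave -1.26 (SE 0.245, adjusted p = 0.000312). Kif23, a motor of the central spindle needed for cytokinesis, had the highest difference of AML against lineage-negative marrow. It had 1143 at the lowest, 2119.7 at the median and 2521 at the highest in AML, 2338, 2241, 2334 and 2319.8 in whole marrow and 1923, 1486, 1325 and 1517 in lineage-negative marrow. The AML median was above all lineage-negative libraries but the groups overlapped, and the difference of 0.34 (SE 0.169, adjusted p = 0.106) did not pass the test. Without AML replicate 3 it was 0.47 (adjusted p = 0.00305) and passed as higher, as it did without lineage-negative replicate 1, at 0.44 (adjusted p = 0.0497). Against whole marrow it was -0.24 (adjusted p = 0.287), and lineage-negative against whole marrow gave -0.58 (SE 0.191, adjusted p = 0.0162). Kif11, the motor that separates spindle poles, differed by -0.68 (adjusted p = 0.0156) and -0.18 (adjusted p = 0.495) against whole and lineage-negative marrow, and Tpx2, an activator of Aurka, by -0.65 (adjusted p = 0.014) and -0.43 (adjusted p = 0.0751).

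Of the 5 centromere, kinetochore and passenger genes, 4 passed as lower in AML than in whole marrow, against 20.9% of all genes. None passed against lineage-negative marrow, where 25.5% of all genes passed as lower. The medians were -0.62 and -0.17. Without lineage-negative replicate 3, Cenpe passed as lower against lineage-negative marrow, at -0.60 (adjusted p = 0.0371). Ndc80, which links kinetochores to microtubules, had 460.5 at the lowest, 832 at the median and 1002 at the highest in AML. It had 1112, 1111, 1136 and 1003 in whole marrow and 784, 696, 680.5 and 702 in lineage-negative marrow. Whole marrow was above AML and lineage-negative marrow without overlap, but its lowest library, at 1003.5, was close to the highest AML library, at 1002.1. The differences were -0.49 (SE 0.166, adjusted p = 0.0282) and 0.12 (SE 0.166, adjusted p = 0.572) for AML against whole and lineage-negative marrow, and -0.61 (SE 0.188, adjusted p = 0.0107) between the wild-type groups. The first did not pass without AML replicate 4 (adjusted p = 0.052) or whole marrow replicate 1, 2 or 3 (adjusted p = 0.0655, 0.0634 and 0.0704). Against whole marrow Cenpa, the centromeric histone, differed by -0.25 (adjusted p = 0.196) and Cenpe, a kinetochore motor, by -0.62 (adjusted p = 0.029). Cenpe did not pass without whole marrow replicate 1, 3 or 4 (adjusted p = 0.0589, 0.071 and 0.0905). Cenpf differed by -0.84 (adjusted p = 0.00486) and Birc5, a passenger protein, by -0.84 (adjusted p = 0.00548).

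The 2 genes of the anaphase-promoting complex differed from each other. Ube2c (ENSMUSG00000001403), its ubiquitin-conjugating enzyme, had counts of 615 at the lowest, 1132 at the median and 1335 at the highest in AML. The whole marrows had 2133, 2449, 2785 and 2848, and the lineage-negative marrows 691, 1333, 1002 and 986. Whole marrow lay above all other libraries, and AML and lineage-negative marrow overlapped. AML averaged 1084 ± 233 (SD, n = 7), whole marrow 2554 ± 331 (SD, n = 4) and lineage-negative marrow 1003 ± 262 (SD, n = 4). For AML the difference was -1.26 (SE 0.193, adjusted p = 6.85e-05) against whole marrow, 2.4-fold lower, and 0.11 (SE 0.193, adjusted p = 0.644) against lineage-negative marrow. Lineage-negative against whole marrow gave -1.38 (SE 0.218, adjusted p = 4.48e-05). Cdc20, its activator in mitosis, had 1002 at the lowest, 1832 at the median and 2085 at the highest in AML. It had 1577, 1940.4, 2135 and 1735 in whole marrow and 2152, 2187, 1699.5 and 1611 in lineage-negative marrow. All groups overlapped, and the differences were -0.19 (SE 0.174, adjusted p = 0.405), -0.24 (SE 0.174, adjusted p = 0.267) and 0.05 (SE 0.197, adjusted p = 0.857) for AML against whole, AML against lineage-negative and lineage-negative against whole marrow. The promoters of both genes hold CHR and CCAAT matches, as shown above.

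Mki67, the proliferation marker that coats mitotic chromosomes, had 13065 at the lowest, 22549 at the median and 26122 at the highest in AML. It had 42067, 35944, 45056 and 55309 in whole marrow and 36670.0, 19133, 21661 and 28301 in lineage-negative marrow. AML was below whole marrow without overlap. The difference was -1.08 (SE 0.227, adjusted p = 0.00126) against whole and -0.29 (SE 0.227, adjusted p = 0.301) against lineage-negative marrow. Top2a, the topoisomerase that untangles sister chromatids, had 5827 at the lowest, 13177 at the median and 14898 at the highest in AML, 14589.7, 15445, 18548 and 18704 in whole marrow and 16847, 17374, 14692 and 15197 in lineage-negative marrow. AML overlapped with both wild-type groups. Its differences were -0.54 (SE 0.207, adjusted p = 0.0494) and -0.47 (SE 0.207, adjusted p = 0.0653), and the first passed the test but not when any 1 whole marrow was left out, with -0.49 (adjusted p = 0.126) without replicate 4. Nor did it pass without AML replicate 4 (adjusted p = 0.0779) or 7 (adjusted p = 0.0593), or without any 1 lineage-negative library (adjusted p = 0.0505 to 0.0592). The Top2a difference against lineage-negative marrow passed without AML replicate 5, at -0.54 (adjusted p = 0.0437).

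The rest of both pathways was counted in lists of other genes. Of 50 other replication genes, 22 were called lower in AML than in lineage-negative marrow (44.0%) and 2 higher, against 12.4% and 17.6% of all genes, with a median of -0.90. Against whole marrow 1 was called lower (2.00%), against 16% of all genes, with a median of -0.31. The gene lower in both was Orc1, the largest subunit of the origin recognition complex, which averaged 129 ± 28.6 (SD, n = 7) over the AML libraries, 444 ± 61.8 (SD, n = 4) over whole marrow and 446 ± 36.2 (SD, n = 4) over the lineage-negative libraries. Its differences were -1.80 (SE 0.175, adjusted p = 6.42e-07) and -1.81 (SE 0.175, adjusted p = 1.92e-07). The 2 genes called higher were Pold4, a small subunit of polymerase delta, by 1.47, and Dck, a deoxynucleoside kinase of salvage, by 1.04. Without AML replicate 3, 13 of the 50 were called lower than in lineage-negative marrow. In lineage-negative against whole marrow 7 were called higher, against 11% of all genes, and 1 lower, with a median of 0.47. Among the 7 was Timeless, a fork protection protein, with a difference of 1.51 (SE 0.272, adjusted p = 0.000158). Of 52 other mitotic genes, 2 were called lower in AML than in lineage-negative marrow, Wee1, a kinase that restrains Cdk1, and Zwint, a kinetochore protein, with a difference of -1.13 each and a median over the list of -0.34. That is 3.85%, against 12.4% of all genes, and on the adjusted p alone 15 (28.8%) were lower, against 25.5% of all genes. Against whole marrow 3 were called lower, with differences of -1.95 for the Cdk1-activating phosphatase Cdc25b, -1.39 for the motor Kif18a and -1.05 for Hmmr, and a median of -0.55. That is 5.77%, against 16% of all genes. Lineage-negative against whole marrow gave 2 called lower, with differences of -2.31 for Cdc25b and -1.04 for Kif18a, and a median of -0.28, against 24.8% of all genes called lower.

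Of the 18 regulators of these genes that were listed, 17 were found, and 4 of them had calls for lower levels in AML against whole marrow, where 16% of all genes had such calls. Against lineage-negative marrow 5 were called lower (E2f3, E2f4, E2f6, Tfdp2 and Mybl2) and 1 higher (E2f2), against 12.4% and 17.6% of all genes. E2f6, a repressive E2F, differed by -1.13 (SE 0.194, adjusted p = 9.87e-05) and E2f3, an activating one, by -1.01 (SE 0.129, adjusted p = 4.43e-06). E2f2, an activating E2F, averaged 3668 ± 799 (SD, n = 7) over the AML libraries, 9005 ± 865 (SD, n = 4) over whole marrow and 879 ± 373 (SD, n = 4) over the lineage-negative libraries. AML thus lay between the wild-type groups, with differences of 2.11 (SE 0.202, adjusted p = 1.66e-07) against lineage-negative and -1.32 (SE 0.202, adjusted p = 6.85e-05) against whole marrow. Tfdp2, a dimerisation partner of E2F proteins, averaged 633 ± 150.2 (SD, n = 7) over the AML libraries, 6449 ± 901 (SD, n = 4) over whole marrow and 1558 ± 88.6 (SD, n = 4) over the lineage-negative libraries. It was lower in AML than in either, with differences of -3.37 (SE 0.157, adjusted p = 1.08e-10) against whole marrow and -1.33 (SE 0.157, adjusted p = 1.84e-06) against lineage-negative marrow. Mybl2, a factor of the complex that binds CHR elements, was called lower in both comparisons, at -1.04 (SE 0.210, adjusted p = 0.000854) against whole marrow. The retinoblastoma gene Rb1 differed by -1.03 (SE 0.165, adjusted p = 0.000106) against whole marrow. Against lineage-negative marrow Rb1 was higher in AML, at 0.69 (SE 0.165, adjusted p = 0.00184). Summed erythroid markers were at least 1753560 in whole marrow and at most 69823 elsewhere, and their part in these values was not tested.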

How the data were processed

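Total RNA from TRIzol was sequenced after TruSeq Stranded Total RNA preparation, per the labels' protocols. The authors deposited a signal per gene, estimated reads divided by a DESeq2 size factor of the poscounts type, as the name of the table gives it. The submitters' processing notes name STAR, Partek, DESeq2 and mm10; versions, the annotation and the strand used for counting are not given in the sources used here. Reads of overlapping or antisense genes and of close paralogs are therefore not separated. Low values were whole multiples of 1 step, within a tolerance of 0.02 of a step, for 78.6% to 85.1% of values in each library, so whole reads were not recovered and depth was estimated as the total divided by the step. Depth intervals for single values are not given.

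The titles gave groups and replicate numbers. Genes with a normalized count of at least 10 in at least 4 samples were kept (18941 of 38315). Their values were rescaled with TMM factors computed here (trimming 0.3 of log ratios and 0.05 of mean levels), and log2(value + 1) was fitted with limma 3.58.1 in R 4.3.3, with 1 mean per group, a variance trend, two-sided tests and Benjamini-Hochberg adjustment over all genes kept. Nothing in the labels ties samples across groups, and p-values measure the spread between these samples. Deviations of same-numbered libraries from their group means had correlations of -0.27 to 0.17, so numbers were not used as pairs. The procedure was tested on simulated data. The genes and lists were chosen with earlier results of these data known. Given in full were the 2 highest and the 2 lowest differences in each gene set and comparison, and 12 fixed genes; of the other lists, the 2 most extreme called genes in each direction. Alternatives changed the scaling, the pseudocount, the filter, the variance model, the weights, the samples in the fit and the test, subtracted the mean level of 1750 olfactory and vomeronasal receptor genes, or left out libraries. The coordinates of the table were not used; promoters came from RefSeq on GRCm38.p6.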

Additional observations from a re-analysis of the deposited data

Results flagged for a closer look

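In a group of 4 to 7 libraries, a value was marked when its gap to the nearest other library, as a share of the range of the group, passed Dixon's critical value at the 95% level. Of 147 checks (49 genes in 3 groups), 16 were marked, and chance marks about 1 in 20. AML replicate 3 gave 11 of the 16, always as the lowest AML library. Its rescaled normalized counts were 120 for Gins1 (280.1 to 342 in the other AML libraries), 173 for Gins3 (241 to 283), 749.5 for Cdk1 (1361 to 1814), 1860.3 for Ccna2 (3528 to 4316), 829 for Ccnb2 (1432 to 1782) and 1268 for Bub1b (2587 to 3250). They were 889.6 for Aurkb (1559.7 to 2022), 1859 for Kif11 (4231 to 5074), 1096 for Tpx2 (2149.7 to 2669.5), 1244 for Cenpe (2292 to 2763) and 755 for Birc5 (1566 to 2159.6). Of these 11 genes, 9 are mitotic.

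The 5 other marks were in wild-type groups. Whole marrow replicate 1 had 975 for Cdt1 (1276 to 1321 in the others), and whole marrow replicate 2 had 1413 for Aurka (1533 to 1556). Lineage-negative replicate 3 had 6449.7 for Rrm1 (7727 to 7942). Lineage-negative replicate 2 had 1451 for Tyms (1296 to 1309) and 1724 for Ccnb2 (1305 to 1359).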

How the results depend on the processing

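The counts called lower in AML than in lineage-negative marrow were 16 S phase and 0 mitotic genes with the deposited scaling and with limma-voom, and 17 and 0 with quantile scaling. On the adjusted p alone, 7 mitotic genes passed as lower with quantile scaling and 0 with the deposited scaling. Leaving out 1 library gave 11 to 17 and 0, and leaving out AML replicate 3 and lineage-negative replicate 1 together, chosen after seeing the data, gave 10 and 0. Cdc6, Chaf1b, Gins2, Mcm2, Mcm3, Mcm4, Mcm6, Mcm7, Pola1 and Pole were called under all 28 alternatives. Same-numbered libraries share only a number; with the replicate block the counts were 17 and 0, and against whole marrow 3 S phase and 5 mitotic genes were called lower in AML.

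The comparisons with whole marrow rest on the scaling. With the deposited size factors 0 S phase and 0 mitotic genes were called lower in AML, and in lineage-negative marrow 18 S phase genes were called higher, 0 S phase genes lower and 0 mitotic genes lower. Quantile scaling gave 5 S phase genes higher and 1 lower there. Array weights gave 1 higher and receptor subtraction 1 higher. Without both libraries together, 1 mitotic gene was called lower in AML against whole marrow, lineage-negative marrow had 1 S phase gene higher and 1 lower, and its gap between the gene sets was 1.02. Leaving out 1 library, calls for mitotic genes lower in AML against whole marrow numbered 1 to 4 (1 without AML replicate 3), S phase genes higher in lineage-negative marrow 1 to 3 (1 without whole marrow replicate 1 or 2 or lineage-negative replicate 1 or 2) and lower 1 to 2 (1 without whole marrow replicate 3 or 4 or lineage-negative replicate 1, 2 or 3), and that gap ranged from 1.02 to 1.17.

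Some differences of single genes changed sign. For AML against whole marrow the deposited scaling gave 0.54 for Aurkb, 0.51 for Bub1b, 0.50 for Cdc20, 0.48 for E2f1, 0.33 for Mcm5, 0.68 for Pold1, 0.58 for Pole and 0.16 for Top2a. For lineage-negative against whole marrow it gave 0.64 for Aurkb, 0.14 for Ccnb1, 0.20 for Cdk1, 0.70 for Pcna and 0.64 for Top2a, and quantile scaling gave 0.011 for Aurkb, 0.12 for Pcna and 0.26 for Top2a. Array weights gave 0.019 for Pold1 in AML against whole marrow and -0.13 for Cdc20 between wild-type groups, receptor subtraction -0.098 for Cdc20 and limma-voom 0.0022 for Pcna there, and the replicate block -0.0413 for Ndc80 in AML against lineage-negative marrow. Without both libraries Pold1 was 0.081 and Pole 0.038 in AML against whole marrow, Aurkb 0.025 in AML against lineage-negative marrow, and Cdc20 -0.0150 and Pcna 0.034 between wild-type groups. Leaving out 1 library, Pold1 ranged from -0.071 to 0.081 and Pole from -0.22 to 0.038 in AML against whole marrow, Aurkb from -0.21 to 0.045 in AML against lineage-negative marrow, and between wild-type groups Aurkb ranged from -0.18 to 0.051, Cdc20 from -0.027 to 0.12 and Pcna from -0.11 to 0.053. Causes of these changes were not tested.

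Whole marrow had the shallowest libraries, at 11400000 to 17200000 estimated reads, but every gene of the list passed the filter on low values.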

Other observations

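The levels of 2 more replication genes were not given above. Recql4, a helicase of replication initiation, averaged 208 ± 39.8 (SD, n = 7) over the AML libraries, 305 ± 46.5 (SD, n = 4) over whole marrow and 743 ± 53.8 (SD, n = 4) over the lineage-negative libraries, a difference of AML of -1.86 (SE 0.169, adjusted p = 9.16e-08) against lineage-negative marrow. Mcm8, which pairs with Mcm9 in a helicase apart from the replicative ring, averaged 141 ± 26.2 (SD, n = 7) over the AML libraries, 150.1 ± 27.6 (SD, n = 4) over whole marrow and 454 ± 39.6 (SD, n = 4) over the lineage-negative libraries, so lineage-negative exceeded whole marrow by 1.61 (SE 0.191, adjusted p = 2.41e-06).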
